A study of Mus musculus with 2 samples.

Results

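The nuclear genes of respiratory complexes II to V were examined in total RNA-seq of the gastrocnemius, the large calf muscle. The members were the genes with a protein-coding transcript whose symbol is Sdha, Sdhb, Sdhc, Sdhd, Cyc1 or Cycs, or begins with Uqcr, Atp5, Cox4, Cox5, Cox6, Cox7 or Cox8. This rule found 50 genes with 49 symbols (Atp5o stands for 2 gene entries) among 55536 gene rows. The muscle came from female B6Cast F1 mice, the offspring of C57BL/6J and CAST/EiJ parents, with an age of 18 to 20 months in the labels' description, while their age field was not filled in. There was 1 group with 2 libraries, called biological replicates 1 and 2, each made from 300 ng of total RNA with synthetic ERCC spike-in RNAs added. The labels give both libraries the same donor identifier, which names the strain, so that separate animals are taken from the biosample labels alone. No other age, sex or strain was analysed here, so the data give levels and the spread between 2 libraries, not a comparison of conditions.

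Complex II (succinate dehydrogenase) passes electrons from succinate to ubiquinone, complex III passes them on to cytochrome c, and complex IV (cytochrome c oxidase) passes them to oxygen. The proton gradient that complexes III and IV help to build drives complex V, the ATP synthase. Complex II is encoded by nuclear genes alone, whereas complexes III, IV and V also hold subunits encoded in mitochondrial DNA. Several complex IV subunits have a general isoform and an isoform typical of heart and skeletal muscle, each from its own gene.

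The expected counts of genes summed to 38654555 in replicate 1 and 43722892 in replicate 2. The defining markers of skeletal muscle were abundant, with all 6 at or above 1 TPM (a length-corrected share of all transcripts) and Acta1, the skeletal muscle actin, at 21825 and 23051 TPM. The summed TPM of 10 fast fibre genes was 95860 in replicate 1 and 88360 in replicate 2, and that of 10 slow fibre genes was 737 and 3527. The libraries therefore differed in the slow fibre list, all 10 of whose genes were at least 2-fold higher in replicate 2. In bulk tissue, more fibres of one type and more RNA per fibre cannot be told apart. Of the other cells' lists, the summed TPM in replicates 1 and 2 was 61.4 and 47.9 for endothelium and 156 and 162 for mural and smooth muscle cells. It was 428 and 438 for fibro-adipogenic cells, 69.2 and 77.4 for adipocytes, 30.1 and 24.1 for macrophages and 415 and 407 for erythrocytes.

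The sequences shown first are those on which the levels of some members turn. The 3 Atp5g genes encode the same mature subunit c, the protein of the proton-carrying ring of complex V, and their last 90 coding bases before the stop codon differ as follows, with capitals marking differences from Atp5g2.
Atp5g2: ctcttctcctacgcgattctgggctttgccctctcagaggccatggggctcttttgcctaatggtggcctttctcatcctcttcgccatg
Atp5g1: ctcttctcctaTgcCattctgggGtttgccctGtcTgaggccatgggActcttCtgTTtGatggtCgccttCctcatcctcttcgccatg
Atp5g3: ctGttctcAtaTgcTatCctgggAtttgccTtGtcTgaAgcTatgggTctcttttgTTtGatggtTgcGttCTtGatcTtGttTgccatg
Atp5g1 differs from Atp5g2 at 12 of the 90 bases and Atp5g3 at 23. The pseudogenes Gm10175 on chromosome 7 and Gm10231 on chromosome 17 match Atp5g2 at all 90. The same stretch of Cycs, the gene of cytochrome c, is identical in the genes Gm10053, Gm10108 and Gm13772.
Cycs: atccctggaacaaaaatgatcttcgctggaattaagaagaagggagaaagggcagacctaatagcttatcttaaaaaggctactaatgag
In Cox7c, which encodes a small complex IV subunit, the stretch is identical in the pseudogene Gm12338 and differs at 1 base in the pseudogene Gm10012, where the capital marks the difference.
Cox7c: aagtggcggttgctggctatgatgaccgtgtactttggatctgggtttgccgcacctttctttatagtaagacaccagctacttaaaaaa
Gm10012: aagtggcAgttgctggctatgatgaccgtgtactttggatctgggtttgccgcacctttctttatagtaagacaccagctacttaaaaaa
These transcript sequences are from GENCODE M21, the annotation of the deposited files, and each gene's coordinates below are in mm10.

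Of the 50 genes, 45 reached 1 TPM in both libraries by RSEM, the tool that made the deposited gene table. Among all gene rows 19.7% did so, but those include pseudogenes, whereas each member has a protein-coding transcript. The 45 genes had a median of 262 TPM in replicate 1 and 338 TPM in replicate 2, and all 50 summed to 13143 and 17532 TPM. They made up 2.82% and 3.84% of the TPM of nuclear protein-coding genes. Cox7b2, Cox8c and the second Atp5o entry had 0 counts in both libraries, where a count of 0 allows up to 3 counts per library (0.0776 and 0.0686 CPM, where CPM is counts scaled by library depth, for counting error only). Cox6b2, a testis isoform of a complex IV subunit, had 2 and 4 counts, and Cox4i2, an isoform known from lung, had 10 and 23.

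**Figure D1:**
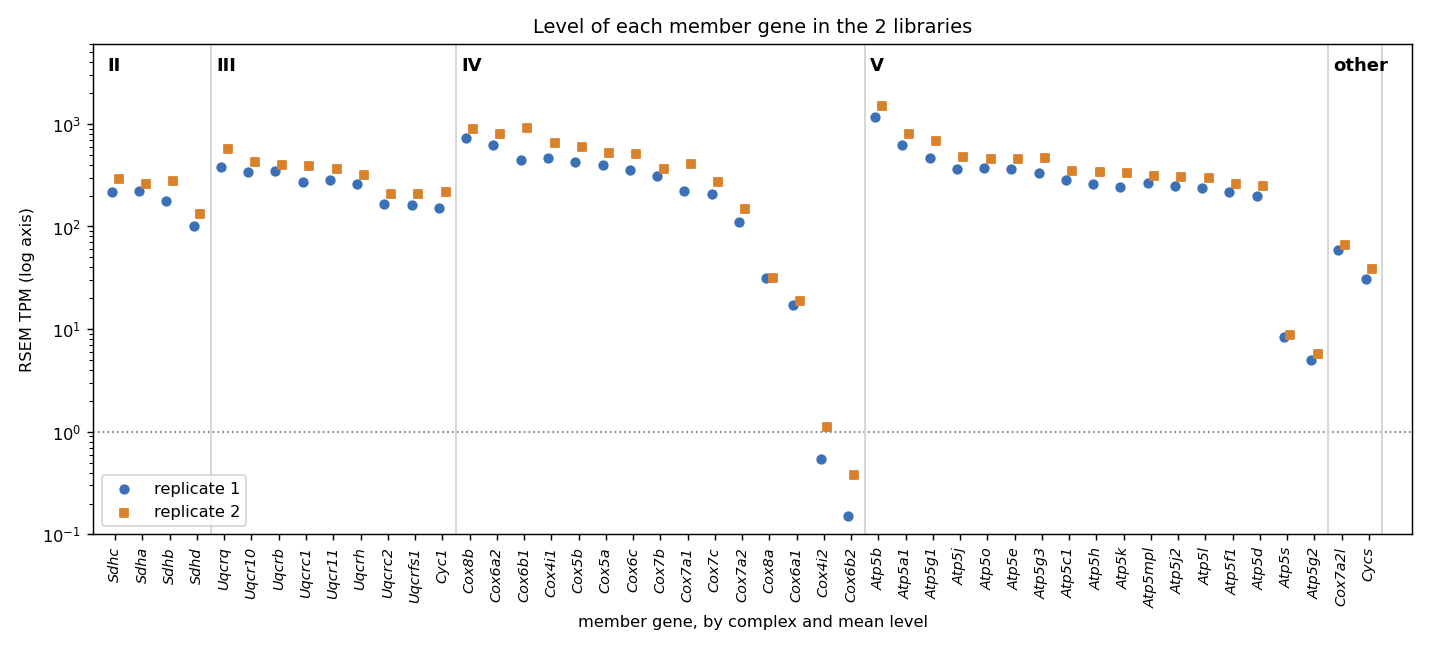
TPM by RSEM (log axis) of the 47 member genes with counts, by complex and in order of mean level, with circles for replicate 1 and squares for replicate 2. Atp5b is the highest, at 1172 and 1482 TPM, and the 2 members below the dotted line at 1 TPM in replicate 1 are Cox4i2 and Cox6b2.

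The 4 genes of complex II lay within 2.19-fold of each other in mean TPM. Sdha, the flavoprotein that oxidises succinate (chr13:74322254-74350280), was at 224 TPM in replicate 1 and 259 TPM in replicate 2. Sdhb, the iron-sulfur subunit (chr4:140961203-140979193), was at 176 and 276 TPM. The membrane anchors Sdhc (chr1:171127165-171150603) and Sdhd (chr9:50596357-50603812) were at 215 and 292 TPM and at 100.5 and 131.6 TPM. All 4 genes were higher in replicate 2, and Sdhd was the lowest in both libraries.

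The 9 complex III genes spanned 2.58-fold in mean TPM. Uqcrc1 and Uqcrc2, the core subunits, were at 272 and 389 TPM and at 165 and 209 TPM. The electron carriers of the complex were the lowest of the group in mean TPM, but nearly level with Uqcrc2. Cyc1, cytochrome c1, was at 151 and 217 TPM, which is above Uqcrc2 in replicate 2. Uqcrfs1, the Rieske iron-sulfur protein, was at 161 and 207 TPM. Small supernumerary subunits were higher than these carriers. Uqcrq reached 377 and 574 TPM, Uqcrb 347 and 395 TPM, and Uqcr10 341 and 428 TPM. Uqcr11 was at 282 and 364 TPM, and Uqcrh, the hinge protein, at 260 and 320 TPM. Each of the 9 was higher in replicate 2 than in replicate 1. Cycs, the mobile carrier between complexes III and IV, was listed at 31.1 and 38.7 TPM by RSEM, a value that changes with the tool as described for the copies.

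Among complex IV subunits that have no muscle isoform in this set, or whose general form serves muscle too, the 7 genes had a median of 395 TPM in replicate 1 and 514 TPM in replicate 2. Cox4i1, a nuclear subunit added early in assembly, was at 466 and 651 TPM, and Cox5a and Cox5b were at 395 and 514 TPM and at 423 and 598 TPM. Cox6c stood at 358 and 504 TPM, Cox7b at 308 and 365 TPM and Cox7c at 206 and 270 TPM. Cox6b1, which lies on the intermembrane side, was at 440 TPM in replicate 1 and 907 TPM in replicate 2, the widest TPM gap among the members at or above 1 TPM. Its expected counts differed less, at 5402 and 8243. RSEM placed 63.5% of its TPM on the 618-base transcript in replicate 1 but 6.05% in replicate 2, where shorter transcripts took the rest, while kallisto placed 99.9% and 99.4% on the 618-base one.

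Muscle isoforms exceeded general isoforms in the 3 pairs of complex IV. Cox6a2 (chr7:128205435-128206387) was at 616 and 804 TPM, against 17.3 and 18.6 TPM for the general Cox6a1. Cox8b (chr7:140898945-140900446) was at 723 and 892 TPM, against 31.2 and 31.7 TPM for Cox8a. Cox7a1 (chr7:30184144-30186078) was at 220 and 411 TPM, against 111 and 149 TPM for Cox7a2 (chr9:79755361-79759878). The muscle form thus took 97.5% ± 0.332 (SD, n = 2) of the pair's TPM for Cox6a2 and 96.2% ± 0.499 (SD, n = 2) for Cox8b, but 69.9% ± 4.99 (SD, n = 2) for Cox7a1. In the first 2 pairs kallisto gave 95.8% ± 0.783 (SD, n = 2) and 95.1% ± 1.17 (SD, n = 2). For Cox7a1 it gave 46.8% in replicate 1 and 56.7% in replicate 2. Which of Cox7a1 and Cox7a2 is the more abundant in replicate 1 thus turns on the tool. Kallisto put 0% of the Cox7a1 TPM on its 393-base transcript in replicate 1 and 44.15% in replicate 2. A 477-base processed transcript took 59.1% and 66.3% of the Cox7a2 TPM by kallisto, against 27.0% and 23.0% by RSEM. The part of these transcripts in the shares was not tested. Cox4i2 took 0.144% ± 0.0397 (SD, n = 2) of its pair with Cox4i1. Cox7a2l, a related gene whose product joins complexes III and IV into supercomplexes, was at 58.8 and 66.3 TPM.

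Within each pair the muscle isoform's count was higher relative to the general one in replicate 2, a comparison in which library scaling cancels. For Cox7a1 over Cox7a2 the ratio of counts was 1.37 times that of replicate 1 (95% counting interval 1.26 to 1.49). For Cox6a2 over Cox6a1 it was 1.21 times (1.02 to 1.44), and for Cox8b over Cox8a 1.22 times (1.06 to 1.39). The intervals reflect counting alone, because PCR copies of a molecule are not told apart in these reads, and 1 library on each side allows no replicate check and no test. Heart and brown fat share some of these isoforms, so their marker lists are given whole. In the brown adipocyte list, Ucp1 had 0 counts in both libraries, Cidea was at 0.31 and 0.54 TPM, and Ppara, which muscle also expresses, was at 1.94 and 9.73 TPM. In the cardiac list, Nppa was at 0.05 and 0 TPM, Tnni3 at 0.07 TPM in both, Tnnt2 at 2.07 and 1.46 TPM and Myh6 at 15.5 and 82.8 TPM. Kallisto gave lower values for Myh6, 6.59 and 39.1 TPM. Summed TPM by RSEM was 2.25 and 10.3 for the first list and 17.7 and 84.3 for the second. The part of these lists in the isoform ratios was not tested.

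**Figure D2:**
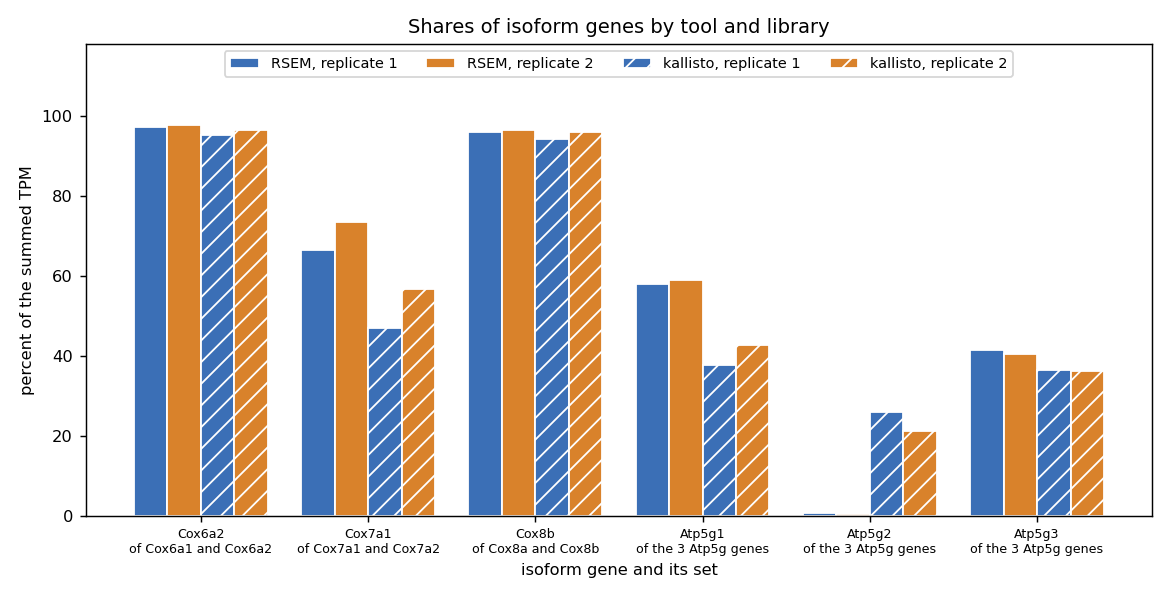
Percent of the summed TPM taken by each isoform gene in its set, for RSEM (plain bars) and kallisto (hatched bars) in each replicate. Cox6a2 and Cox8b lie above 94% by both tools, while Cox7a1 ranges from 46.8% to 73.4% and Atp5g2 from 0.503% to 25.9%.

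Complex V held the most abundant member. Atp5b, the catalytic beta subunit (chr10:128083273-128090391), was at 1172 and 1482 TPM, and Atp5a1, the alpha subunit, at 627 and 795 TPM. The other genes of the F1 head were lower, with Atp5c1 (gamma) at 285 and 347 TPM, Atp5d (delta) at 199 and 251 TPM and Atp5e (epsilon) at 367 and 455 TPM. In the peripheral stalk, which holds the head still against the rotor, Atp5o was at 372 and 457 TPM and Atp5j at 367 and 478 TPM. Atp5h was at 262 and 338 TPM and Atp5f1 at 215 and 259 TPM. The 4 small membrane subunits Atp5j2, Atp5k, Atp5l and Atp5mpl differed by at most 1.09-fold in mean TPM, between 265 and 290 TPM by RSEM, but by 2.23-fold by kallisto. Atp5s, whose product is named for the synthase but is not one of its subunits, was far lower at 8.4 and 8.79 TPM. Atpif1, the inhibitor of complex V, was at 24.6 and 24.3 TPM.

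The 3 genes of subunit c had the same order by both tools but very different shares. By RSEM, Atp5g1 (chr11:96068852-96075670) was at 464 and 674 TPM, Atp5g3 (chr2:73908447-73911326) at 330 and 462 TPM, and Atp5g2 (chr15:102662864-102672352) at 4.95 and 5.75 TPM. Kallisto gave 489 and 683 TPM for Atp5g1, 472 and 579 TPM for Atp5g3 and a mean of 337 TPM for Atp5g2, which is 62.9 times the RSEM value. Atp5g1 accordingly took 58.5% ± 0.708 (SD, n = 2) of the TPM of the 3 genes by RSEM and 40.2% ± 3.5 (SD, n = 2) by kallisto.

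The reads in question lay on the copies shown above. Of the Atp5g2 coding transcript's runs of 100 bases, 86.4% also occur in other genes. RSEM gave Gm10175 3920 and 4583 counts and Atp5g2 itself 90.6 and 119, while kallisto gave Gm10175 0 and Atp5g2 3289 and 4076. With copies added to the member, RSEM's count was 1.22 and 1.15 times kallisto's in replicates 1 and 2. Cycs behaved alike in kind. RSEM gave it 2554 and 3735 counts and Gm10053 3726 and 5365, and Cycs held 38.1% and 37.9% of the counts of itself and its copies, against 68.1% and 68.5% by kallisto. With the copies added, the RSEM count was 0.987 and 0.983 of that of kallisto. For Cox7c the member held 53.0% and 51.7% by RSEM, with 1926 and 3003 counts on Gm12338, and all of the counts by kallisto. Atp5h held 83.3% and 83.4% beside Gm10250, and Atp5g1 96.0% and 96.3% beside Gm10039. Atp5l held 66.3% and 65.9% beside Gm10221, and for it the addition of copies took the RSEM count further from kallisto's, from 0.947 to 1.43 times in replicate 1. In all, 14 members share runs of 100 bases with another gene and 36 do not. Of the others that share runs, Cox7a2l held 80.5% and 79.9% and Cox5b 92.1% and 91.6% by RSEM. Atp5f1, the expressed Atp5o, Cox6a1, Cox6c and Uqcrb held over 98%, and the second Atp5o entry had no counts of its own. The levels of Atp5g2, Cycs and Cox7c are therefore uncertain at the gene level. Levels of other members also differed between the tools, as given below.

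**Figure D3:**
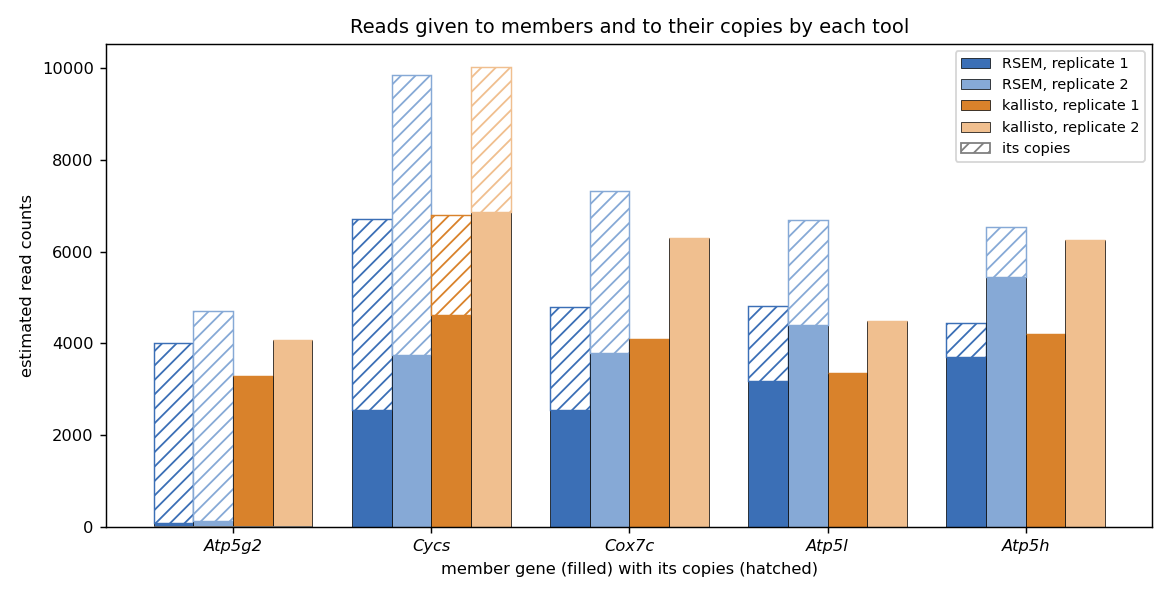
Estimated counts of 5 members (filled) and of their copies (hatched) by RSEM (blue) and kallisto (orange), each with replicate 1 left of replicate 2. RSEM puts nearly all of the Atp5g2 sum on copies, and the sums of member and copies differ less between tools than the members alone for Atp5g2, Cycs and Cox7c.

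Over the 45 members at or above 1 TPM, the median ratio of kallisto's mean TPM to RSEM's was 1.45. It was 1.34 over 9997 nuclear protein-coding genes. The ratio exceeded 2 for 10 members, against 5.13% of those genes. The 10 were Cox7a2, Cox6c, Cox7b, Cox7c, Atp5e, Atp5j2, Atp5l, Atp5h, Atp5g2 and Cycs. Among them Cox7a2 (2.7), Atp5e (2.65), Atp5j2 (2.48) and Cox7b (2.28) share no run with another gene. Kallisto's mean TPM was above RSEM's for 42 of the 45. The exceptions were Cox6b1, Sdhc and Cox6a2. RSEM subtracted 99 bases from each member transcript to get its effective length. Kallisto subtracted a median of 348 bases in replicate 1 and 339 in replicate 2 from member transcripts longer than 1500 bases, and fewer from short ones, such as 275 and 273 from the 360 bases of Cox8b. The part of these lengths in the difference between tools was not tested.

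The tools also named different transcripts for the same gene. In 27 of the 45 members both put the largest share on 1 transcript, and in 18 they did not. RSEM's leading transcript was protein-coding in 42 members, the others being Atp5j, Cox5b and Cox7b. Kallisto's was protein-coding in 36. For Cox7b a retained-intron transcript took 60.8% and 55.7% of the TPM by RSEM and 99.8% and 99.9% by kallisto. For Uqcrh the 547-base coding transcript took 69.7% and 77.0% by RSEM and 0% by kallisto, which put 99.7% and 95.8% on a 579-base processed transcript. In Atp5f1 a transcript annotated as a target of nonsense-mediated decay took 46.6% and 48.8% by RSEM and 43.0% and 43.1% by kallisto. RSEM's leading transcript took under 80% in 13 members: Atp5b, Atp5f1, Atp5g3, Atp5h, Atp5s, Cox5b, Cox6b1, Cox7a2, Cox7b, Cyc1, Sdhc, Uqcrh and Uqcrq.

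The 2 libraries were then compared over the 12969 genes whose counts in both together reached 50, on log2 CPM with TMM scaling, which sets the typical gene to a ratio of 1. All 45 members tested had a higher count in replicate 2, against 49.8% of all genes tested, but on a scale set by the spike-ins Cox8a and Atp5s were lower there (log2 ratios of -0.05 and -0.02). The median log2 ratio was 0.51, against 0.00 over all genes, whose lower and upper quartiles were -0.19 and 0.21. The spike-in scale moved the median of all genes to -0.22 and that of the members to 0.29, which leaves the distance between them as it was. At least 1.5-fold higher on the TMM scale were 12 members, against 7.36% of all genes. Only 1 member was on the spike-in scale and 4 were when scaled by total gene counts, where the share of all genes is not given. At least 2-fold higher on the TMM scale was 1, against 2.7%. On the TMM scale the 95% counting interval of the fold lay above 1 for 42 of the 45, the others being Cox8a, Atp5s and Atp5g2. The share of all genes with such an interval is not given, and the libraries differed beyond counting error over all genes.

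Cox7a1 had the largest ratio, with 1897 counts in replicate 1 and 4009 in replicate 2 and a scaled fold of 2.07 (1.96 to 2.19). Sdhb followed with 5328 and 9437 counts and a fold of 1.74 (1.68 to 1.79). Uqcrq had 4109 and 7128 counts and a fold of 1.70 (1.64 to 1.77), and Cyc1 4852 and 8268 counts and a fold of 1.67 (1.61 to 1.73). These 4 genes belong to complexes II, III and IV. The other 8 past 1.5-fold on the TMM scale were Atp5g1, Atp5g3, Atp5k, Cox4i1, Cox5b, Cox6c, Cox7a2 and Uqcrc1. By complex the median log2 ratio was 0.55 for complex II, 0.51 for complex III, 0.54 for complex IV and 0.47 for complex V. The F1 head genes lay closest together, between 0.43 and 0.49. The general isoforms Cox6a1 and Cox8a were among the lowest, at 0.25 and 0.17.

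**Figure D4:**
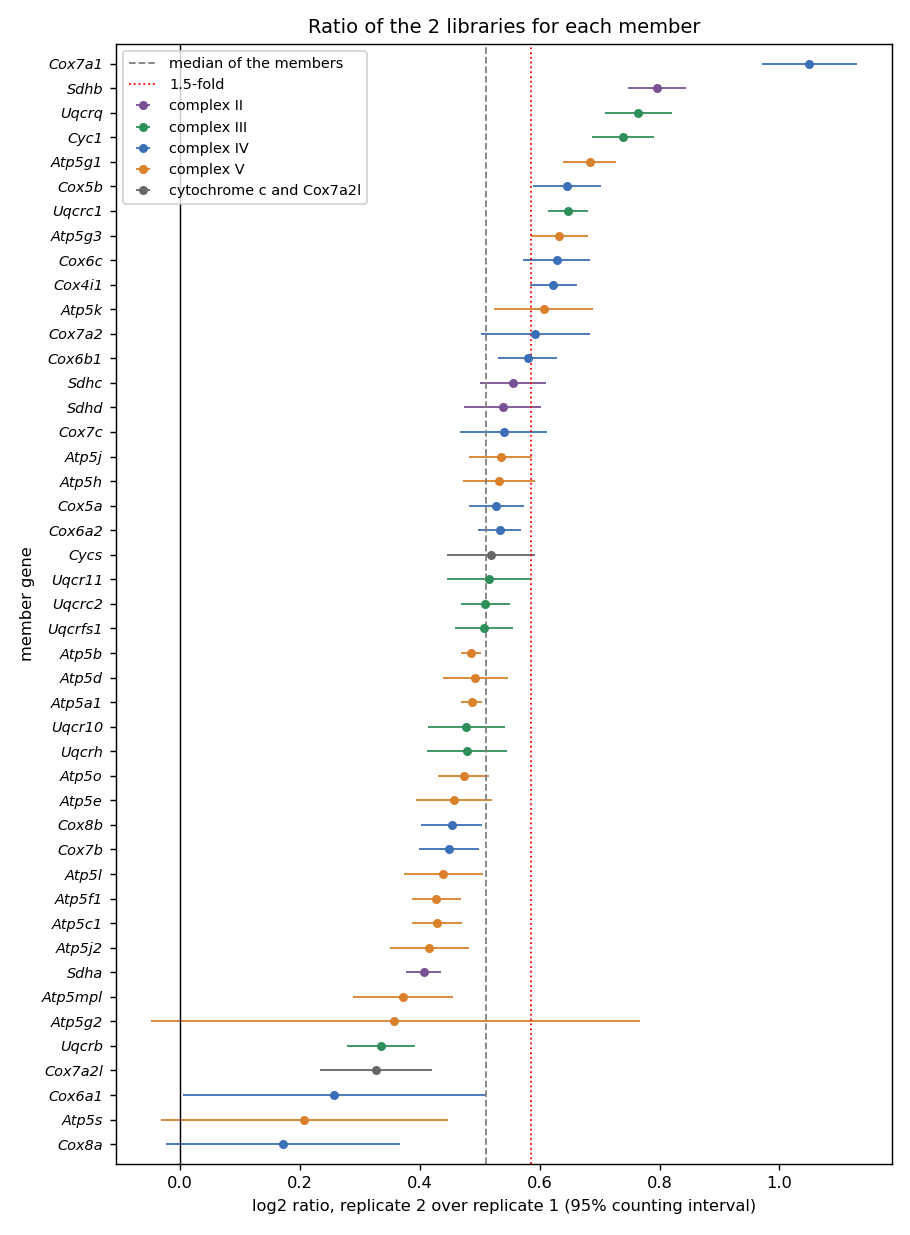
Log2 ratio of replicate 2 over replicate 1 for the 45 members tested, with bars for 95% counting intervals and colours for complexes. The dashed line is the median of the members at 0.51 and the dotted line 1.5-fold, which 12 members pass on the TMM scale (1 on the spike-in scale), led by Cox7a1 at 1.05.

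Genes outside the set give the setting of these ratios. All 38 genes taken as complex I subunits by symbol alone (beginning with Nduf, without the assembly factors) had a log2 ratio above 0, on the spike-in scale too. Their median was 0.47. The 78 mitochondrial ribosomal protein genes had a median of 0.21, with 73 above 0, but on the spike-in scale the median was -0.01 with 34 above 0. Of the assembly factors of complexes II to V, 30 of 34 were above 0 (19 on the spike-in scale), at a median of 0.24, and 2 were at least 1.5-fold higher: Pet117 at 0.93 and Lyrm7 at 0.66. Their levels were lower than those of the subunits, with a median of 16.7 and 17.3 TPM, and Uqcc2, a complex III factor, was the highest at 176 and 188 TPM. Of the 17 regulators, 12 were above 0 (7 on the spike-in scale), at a median of 0.12. Those at least 1.5-fold higher in replicate 2 were Ppara (2.15), Esrrg (1.58), Esrrb (1.22) and Esrra (0.60), the last named after its values were seen. Nrf1 and Gabpa, activators of many respiratory genes and also named outside the naming rule, were at -0.22 and -0.12. The lowest of the 17 was at -0.30, and 0 were at least 1.5-fold lower. The slow fibre list had a median of 2.52, with Tnnt1 the farthest at 2.86, and the fast list a median of 0.05 (-0.17 on the spike-in scale), with Myh1, the myosin of IIX fibres, the farthest at 1.38. Some markers of other cells differed too. Of the 6 fibro-adipogenic genes, the collagen genes Col1a1 and Col3a1 had log2 ratios of 1.70 and 1.87. The rest of that list lay between -0.19 and 0.25, and its median was 0.17 (-0.05 on the spike-in scale). In contrast, 3 of 6 endothelial genes (Kdr, Egfl7 and Cldn5) and 2 of 6 macrophage genes (Adgre1 and Cd68) were at least 1.5-fold lower in replicate 2. The share of all genes that much lower is not given. Counts were few for Adgre1 (58 and 38) and Cd68 (49 and 20). The rest of these 2 lists lay between -0.32 and 0.36. The list medians were -0.38 for endothelium and -0.15 for macrophages (-0.6 and -0.38 on the spike-in scale). The part of the fibre and other cells' lists in the members' ratios was not tested.

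The mitochondrially encoded partners had values that turned on the tool. By RSEM, mt-Cytb of complex III was at 9200 and 11169 TPM and mt-Co1 of complex IV at 13060 and 17736 TPM. mt-Co3 was at 1589 and 1394 TPM and mt-Co2 at 68.2 and 115 TPM, where kallisto gave 1101 and 1162 TPM. For complex V, mt-Atp6 was at 2516 and 3414 TPM and mt-Atp8 at 7431 and 8764 TPM, a gene that kallisto listed at 0. Of these 6 genes, 5 had a log2 ratio above 0 by RSEM counts, and mt-Co3 was at -0.04. By kallisto, mt-Co3 was higher in replicate 2, at 3415 and 4057 TPM. Levels among the partners are therefore given without an order.

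The members' start sites were searched for motifs of factors known to act on respiratory genes. A link between these motifs and the ratios of the 2 libraries was not tested. RefSeq windows from 250 bases before to 50 after a gene's start (GRCm38.p6) matched 35 of the 49 symbols and gave 38 windows. On either strand, GCATGCGC, a core of the NRF1 motif, was in 8 of the 38 windows (21.1%), against 2.71% of 32851 windows in all. The ETS motif CCGGAAG was in 12 (31.6%, against 8.86%), the ERR motif AAGGTCA in 5 (13.2%, against 4.72%) and the YY1 motif AAGATGG in 3 (7.89%, against 6.34%). The MEF2 motif was in 0, against 3.6%. Atp5k and Atp5l held 3 kinds each. No motif was in 20 of the 38 windows, among them those of Atp5b, Sdha, Cox5a, Cox7a1, Cox7a2 and Cox8b. A match is a description of letters and not a bound site. The 250 bases before the RefSeq start are shown for 5 genes, with motifs in capitals. They are Atp5k, Atp5l, Sdhb (the complex II gene with the largest ratio) and the pair Cox7a1 and Cox7a2. For Atp5k, Sdhb, Cox7a1 and Cox7a2 the RefSeq start lies inside the GENCODE gene, so the stretch ends within that gene. In Sdhb the NRF1 match lies in this end.
Atp5k, chr5:108434400-108434649, minus strand: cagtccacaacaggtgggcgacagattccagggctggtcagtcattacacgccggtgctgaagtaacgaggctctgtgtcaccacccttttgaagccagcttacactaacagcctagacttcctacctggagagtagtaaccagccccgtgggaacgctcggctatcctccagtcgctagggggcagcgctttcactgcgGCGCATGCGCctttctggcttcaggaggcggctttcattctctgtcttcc
Atp5l, chr9:44920743-44920992, minus strand: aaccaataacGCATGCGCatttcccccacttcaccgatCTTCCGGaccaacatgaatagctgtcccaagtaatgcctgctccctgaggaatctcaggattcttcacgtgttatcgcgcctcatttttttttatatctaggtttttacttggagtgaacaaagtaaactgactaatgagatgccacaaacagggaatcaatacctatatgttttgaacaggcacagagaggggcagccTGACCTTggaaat
Sdhb, chr4:140961021-140961270, plus strand: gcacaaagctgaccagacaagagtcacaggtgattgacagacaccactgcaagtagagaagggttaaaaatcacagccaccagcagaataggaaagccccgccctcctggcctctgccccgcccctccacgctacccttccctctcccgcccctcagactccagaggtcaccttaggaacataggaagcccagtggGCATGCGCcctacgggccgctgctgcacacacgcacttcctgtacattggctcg
Cox7a1, chr7:30183921-30184170, plus strand: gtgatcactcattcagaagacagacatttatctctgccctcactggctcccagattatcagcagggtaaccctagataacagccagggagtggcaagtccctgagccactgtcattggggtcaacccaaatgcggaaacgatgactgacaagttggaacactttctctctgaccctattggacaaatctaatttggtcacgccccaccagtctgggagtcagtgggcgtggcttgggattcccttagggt
Cox7a2, chr9:79759854-79760103, minus strand: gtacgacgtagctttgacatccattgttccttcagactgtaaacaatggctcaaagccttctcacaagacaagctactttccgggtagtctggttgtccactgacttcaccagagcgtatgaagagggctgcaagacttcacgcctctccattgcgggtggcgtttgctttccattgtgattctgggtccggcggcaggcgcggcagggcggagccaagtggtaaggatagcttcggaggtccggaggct
In Atp5k the capitals are overlapping NRF1 matches on both strands. In Atp5l they are, from the left, an NRF1, an ETS and an ERR match, and in Sdhb an NRF1 match. Some windows hold further matches after the start, which are not shown.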

How the data were processed

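Both libraries are ENCODE total RNA-seq with the mm10 build, per the labels. The deposited expected counts and TPM of genes and transcripts were made by the authors with RSEM, and estimated counts and TPM per transcript with kallisto, per the file headers. Aligner and tool versions: not given in the sources used here. RSEM's posterior mean TPM, also deposited, was an alternative. Kallisto values were summed per gene.

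Expected counts were rounded. Spike-in and tRNA rows stayed out. Genes whose summed count reached 50 were scaled by TMM in edgeR 4.0.16 (R 4.3.3) and expressed as log2 CPM with a prior count of 2. DESeq2 1.42.0 gave other size factors. Folds have exact conditional binomial intervals at 95%, and ratios of isoform counts have log-normal ones. With 1 library against 1 no test was made. Over 12965 genes the libraries differed beyond sampling noise (chi-square per degree of freedom 94.8), so they are not the same data. Copies are genes sharing runs of 100 bases with a member. Other steps ran in Python 3.11.15 (scipy 1.17.1, pandas 2.3.3, numpy 2.4.6). The ratio step was tested on simulated data.

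Members, gene lists and motifs were chosen with earlier results of these data known. Every member is named, and of other lists the 3 highest and the 3 farthest from a ratio of 1 could be. Esrra, Nrf1 and Gabpa were named outside this rule. Alternatives were other scalings, filters, prior counts, minimums, tools and leaving out each library.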

Additional observations from a re-analysis of the deposited data

How the results depend on the processing

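The number of members at or above 1 TPM (45) and the number above 0 in log2 ratio (45) stayed within 1.5 times under every alternative run. Over all 50 members, with those below 1 TPM included, the median level was 280.1 TPM (range 246.8 to 313.4 leaving out each library). It was 443.8 by kallisto and 607.7 when TPM was rescaled to nuclear protein-coding genes. The Cox6a2 share of 97.5% (97.27 to 97.74) was 95.8 by kallisto, 97.96 by expected counts and 97.06 with RSEM counts over kallisto effective lengths. In the same order the Cox8b share of 96.22% (95.87 to 96.57) was 95.09, 93.64 and 97.3, and the Cox7a1 share of 69.91% (66.38 to 73.44) was 51.75, 57.54 and 77.38. The Atp5g1 share of 58.52% (58.02 to 59.02) was 40.21, 53.63 and 62.46, and 43.45 by counts with copies added. The Cox4i2 share ranged from 0.12 to 0.17 leaving out each library. The median log2 ratio of 0.51 was 0.29 on spike-in totals and 0.36 on total gene counts. The 12 members at least 1.5-fold higher in replicate 2 became 1 on spike-in totals and 4 on total gene counts, and 42 passed the lower fold minimum tried and 1 passed 2-fold. The cause was not tested, except that the fold minimum sets the last 2. No share of all genes past 1.5-fold is given for those scales, nor one for the lower fold minimum. Leaving out a library gives no ratio. The alternatives with kallisto lengths, with copies added, and over the members with no shared run were chosen after seeing the data. Depth limits Cox4i2 and Cox6b2 most, which have few counts by both tools.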
